A study of Mus musculus with 8 samples.

Results

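The genes described here are Nr3c1, which encodes the glucocorticoid receptor, and 8 genes known to respond to it: Fkbp5, Tsc22d3, Sgk1, Per1, Ddit4, Klf9, Txnip and Dusp1. Every probe set whose single gene symbol in the platform annotation is one of these 9 was taken, which gave 26 of the 45101 probe sets of the array and 9 of the 18193 genes with a probe set of 1 symbol. Cells were double-positive thymocytes, immature T cells that carry CD4 and CD8, from mice of 4 to 5 weeks. Each of the 8 mice had its own one-colour Affymetrix array. The 4 arrays titled control are given as c-Myb sufficient and the 4 titled mutant as c-Myb deficient. The source names of the same arrays run the other way: those titled control read Mybf/f Cd4-Cre Tcra-/- and those titled mutant read Mybf/w Cd4-Cre Tcra-/-. Each difference below is therefore the arrays titled mutant minus the arrays titled control, and its direction with respect to the Myb alleles is unsettled. Both groups lack the T-cell receptor alpha chain and carry Cre recombinase driven by Cd4 regulatory sequence. Magnetic columns loaded with anti-CD4 were used to enrich the cells, a step that also holds back any other cell with CD4 on its surface.

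The glucocorticoid receptor is a nuclear receptor that waits in the cytosol in a complex with the Hsp90 chaperone. On binding a steroid such as corticosterone it enters the nucleus and binds DNA, where it raises some genes and lowers others. Double-positive thymocytes are known for their high sensitivity to death induced by glucocorticoids, and the thymus itself can make steroids. Fkbp5 encodes an Hsp90 co-chaperone that lowers the receptor's affinity for hormone, and Tsc22d3 encodes GILZ, a leucine zipper protein that mediates anti-inflammatory effects of the hormone.

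Of the 9 genes, Sgk1 rose on mutant arrays and Nr3c1 fell on 2 of its 5 tested probe sets, while no probe set of the other 7 genes passed the test. A probe set was tested when its signal was above 33.8, the median of the whole table and called the dim limit here, on at least 4 of the 8 arrays. That held for 18 of the 26 probe sets and for all 9 genes. Differences are on the log2(signal + 16) scale with their standard error (SE), from limma with Benjamini-Hochberg adjustment over all 22599 tested probe sets and a threshold of 0.05. Across those probe sets 5.82% were called, 3.14% higher and 2.68% lower, and among the 18 there were 3 calls, 1 higher and 2 lower. Both lower calls belong to Nr3c1, so the 3 calls come from 2 genes. The median difference was -0.35 over the 18 tested probe sets and 0.01 over all tested probe sets, with 14 of the 18 differences below 0. A lower transcript signal in bulk RNA cannot tell fewer cells of a type from less RNA per cell.

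Signals of sex-linked genes did not follow the groups alone. The Y-linked genes Eif2s3y, Kdm5d and Uty read 1217 to 1335, 551 to 914 and 202 to 250.5 on control replicates 2, 3 and 4. On control replicate 1 and all mutant arrays they read no more than 15.2, 16 and 16.3. By these signals control replicates 2, 3 and 4 came from males and the other arrays from females. Sex is thus nearly confounded with group. The level of Xist, an RNA made from the inactive X chromosome, ran the other way. It read 4129 to 5736 on the 4 mutant arrays and 4358.5 on control replicate 1, but 23.4 to 36.7 on control replicates 2, 3 and 4. A fit with this level (high or low) as a covariate, called the Xist fit here, therefore compares the mutants with control replicate 1 alone. At an adjusted p under 0.05 in limma it called 0 of the 18 probe sets and 0.0354% of all tested probe sets. The Xist fit put 1 of the 18 at an unadjusted p under 0.05, a share not counted over all tested probe sets. For the probe sets of the 9 genes, its values are given below where they move a result by over 1.5 times, end a call or turn a sign. For the pathway and marker lists further below they are given for some genes only, though every call there was lost in the Xist fit. Myb signal was not lower on mutant arrays: its brightest probe set, 1421317_x_at, read 9362 ± 1151 on control and 11291 ± 543 on mutant arrays (SD, n = 4; log2 difference 0.28, adjusted p = 0.0845 in limma). Myb probe set 1422734_a_at was higher on mutant arrays (0.36, adjusted p = 0.0327), and 1450194_a_at differed by 0.04 (adjusted p = 0.816). Where its probes lie relative to the floxed part was not analysed here, so this does not settle the labels. Of 12 tested double-positive markers none was below the dim limit on all arrays; 3 fell, as given with the other markers at the end, and 9, Cd4 and Cd8a among them, did not pass. The ratio of 3' to 5' actin control probes, a sign of RNA integrity, lay between 1.178 and 1.314, while the 18S rRNA control read 7143 on mutant replicate 4 and 676 to 1459 on the other 7 arrays.

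**Figure D1:**
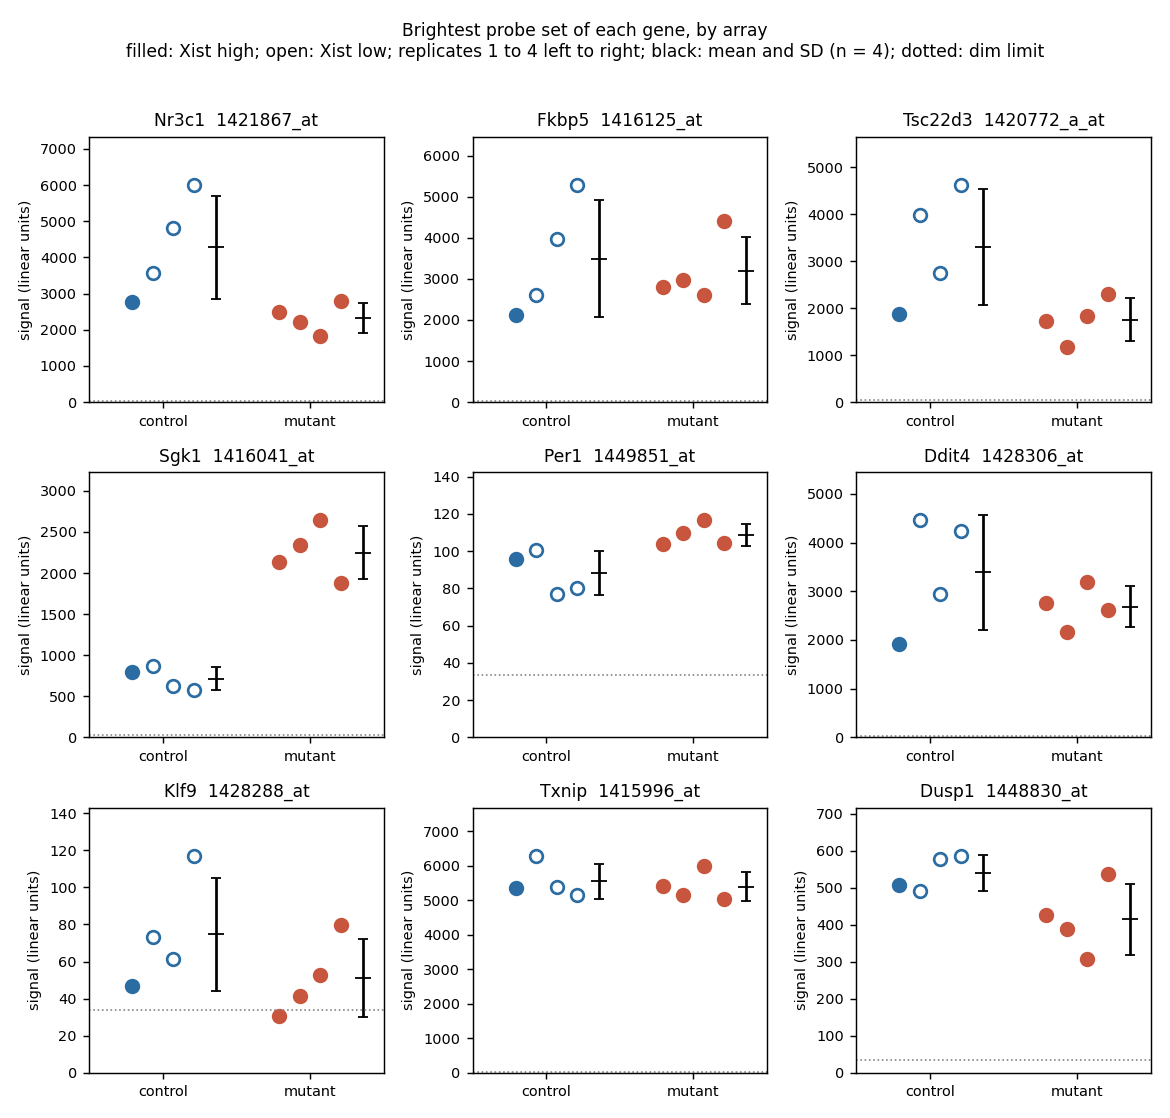
Linear signal of the brightest probe set of each of the 9 genes on the 4 control and 4 mutant arrays, with each array as a point (filled where Xist is high), the mean and SD of each group as a black bar, and the dim limit of 33.8 dotted. Sgk1 and Per1 are the panels in which the groups do not overlap, and control replicate 1 lies within the mutant range for Nr3c1, Tsc22d3, Klf9, Txnip and Dusp1.

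The receptor gene Nr3c1 was lower on mutant arrays by all 5 of its tested probe sets, and 2 of them passed the threshold. On the brightest, 1421867_at, control replicates 1 to 4 read 2766, 3563, 4800 and 6010, and mutant replicates read 2496, 2220, 1828 and 2793. Mutant replicate 4 thus lay just above control replicate 1, and the groups overlapped by that pair alone. The fall was 0.83 ± 0.21 on the log2 scale (log2 difference -0.83, adjusted p = 0.0485 in limma; two-sided exact permutation p = 0.0571 over the 70 labellings), a control level 1.78 times the mutant level. Probe set 1421866_at read 659, 887, 1620 and 2123 on control and 560, 478, 448 and 513 on mutant arrays. Here the groups did not overlap, the log2 difference was -1.23 ± 0.30, and the adjusted p was 0.0388 in limma (exact permutation p = 0.0286, the smallest that 70 labellings can give).

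The 3 other tested probe sets of Nr3c1 had differences of the same sign that did not pass. Probe set 1460303_at read 1460 to 3072 on control and 984 to 1657 on mutant arrays (log2 difference -0.78 ± 0.24, adjusted p = 0.0886). Probe set 1457635_s_at differed by -0.78 ± 0.34 (adjusted p = 0.217). Probe set 1453860_s_at read 107, 142, 432 and 590 on control and 121, 70.3, 56.3 and 26.3 on mutant arrays, a difference of -1.80 ± 0.51 with an adjusted p of 0.0679. The suffix _s_at marks probes that may also bind other transcripts. The probe sets did not rank mutant replicate 4 alike: it was the highest mutant array on 1421867_at, 1460303_at and 1457635_s_at and the lowest on 1453860_s_at, and it is the array with the high 18S rRNA control. The sixth probe set, 1431378_at, stayed below the dim limit on all arrays, at no more than 20.5, and was not tested.

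Spread among the control mice was wide for Nr3c1. The log2 standard deviation over the 4 controls was 0.49 to 1.12 on its 5 tested probe sets, against a median of 0.20 over all tested probe sets. Control replicates 3 and 4 read above replicates 1 and 2 on all 5, by a mean of 0.77 to 1.90 log2 units. Over the mutants it was 0.13 on 1421866_at, below the median of 0.20 over all tested probe sets, and 0.26 to 0.70 on the 4 others, above that median. Control replicate 1, the control with high Xist, lay inside the mutant range on 4 of the 5 probe sets. In the Xist fit the 5 differences lay between -0.13 and -0.67, and that of 1421867_at to -0.26 ± 0.27 (adjusted p = 0.903). That fit rests on 1 control mouse, which is assumed to vary like the others.

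The Nr3c1 calls rested on most single arrays. For 1421867_at the call was lost without control replicates 2, 3 or 4 (adjusted p = 0.0591, 0.146 and 0.0946) and without mutant replicates 1, 2 or 3 (0.0947, 0.129 and 0.131). For 1421866_at it was lost without control replicates 3 or 4 (0.124 and 0.066) and without mutant replicates 1, 2, 3 or 4 (0.0787, 0.107, 0.102 and 0.0601). Leaving out control replicate 1 gave -1.02 (adjusted p = 0.0165) and -1.51 (0.0103) for these probe sets and brought 1453860_s_at past the threshold at -2.17 (0.0372). Leaving out mutant replicate 4 brought 1460303_at past it at -0.93 (0.0453).

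The genes whose array profile was most like that of Nr3c1 were Slc30a4, a zinc transporter gene, Nfkbie, which encodes an inhibitor of NF-kappaB, and Wscd1. Likeness was the root-mean-square distance between log2 signals centred on each gene's mean over the 8 arrays, for 1 probe set a gene. Slc30a4 lay 0.145 log2 units from Nr3c1, Nfkbie 0.152 and Wscd1 0.154, where the median of the 9940 genes compared was 0.565. Slc30a4 read 990.5, 1420, 1892 and 1920 on control replicates 1 to 4 and 838.5, 832, 533 and 1073 on mutant replicates 1 to 4. It was chosen for its likeness to Nr3c1, so its order of arrays is no separate result. Nfkbie fell by 0.72 on the log2 scale (log2 difference -0.72, adjusted p = 0.0248), while Slc30a4 (-0.91, 0.0508) and Wscd1 (-0.78, 0.19) did not pass.

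**Figure D2:**
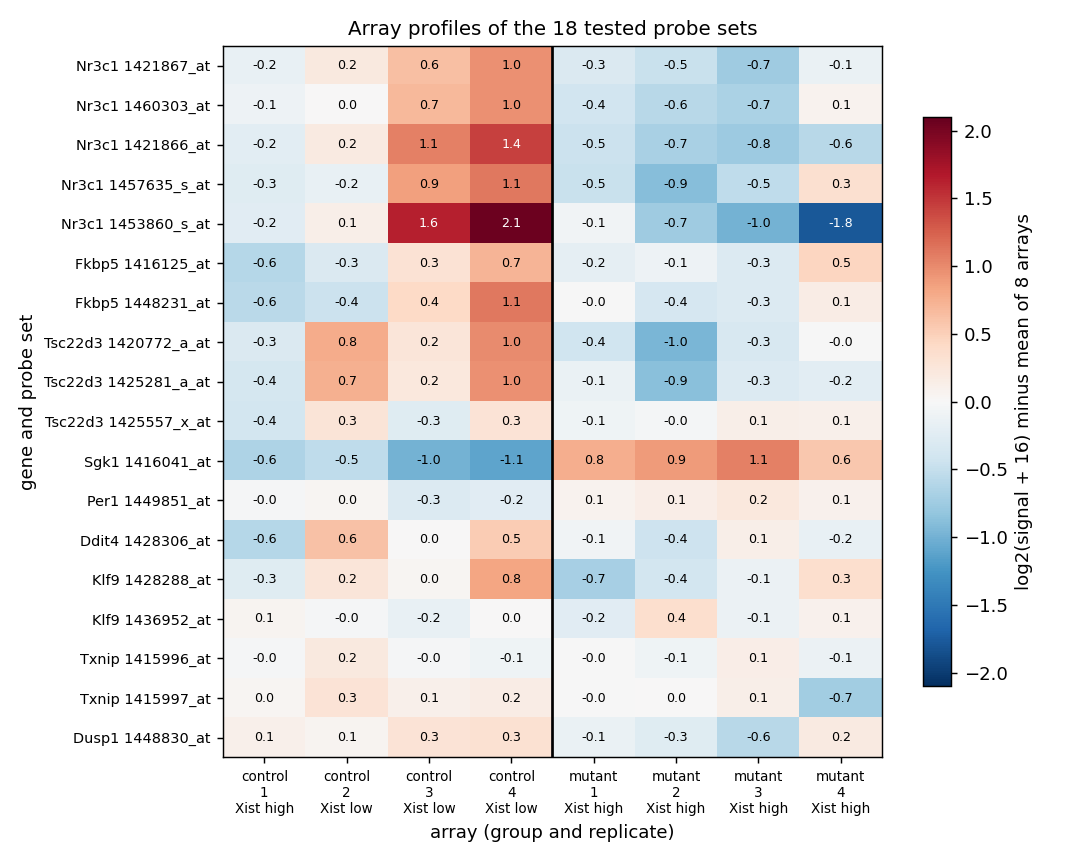
Log2(signal + 16) minus the mean of the 8 arrays for each of the 18 tested probe sets (rows) on each array (columns), red above and blue below the mean, with the Xist class under each array. The 5 Nr3c1 rows and the Fkbp5 1448231_at row are reddest on control replicates 3 and 4, the Fkbp5 1416125_at row on control replicate 4 and mutant replicate 4, the Tsc22d3 and Ddit4 rows on control replicates 2 and 4, and the Sgk1 row is blue on all controls and red on all mutants.

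Of the 8 response genes, Sgk1 was the 1 that was called. Sgk1 encodes a serine-threonine kinase that is induced by glucocorticoids and by serum and that regulates ion transport and Foxo factors. Its probe set, 1416041_at, read 800, 868, 622 and 572 on control replicates 1 to 4 and 2134, 2340, 2644 and 1874 on mutant replicates 1 to 4. The groups lay far apart, with no overlap, in a direction opposite to that of Nr3c1. The rise was 1.64 ± 0.15 on the log2 scale, a mutant level 3.12 times the control level, with an adjusted p of 0.000325 in limma and an exact permutation p of 0.0286. It stayed past the threshold without each single array in turn, at 1.54 to 1.74 log2 units. In the Xist fit the difference was 1.46 and its adjusted p 0.0856, so the call was lost there.

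The promoters of the members were searched for the binding sequence of the receptor. RefSeq (GRCm38.p6) gave 16 start sites for 8 of the 9 genes, 6 of them for Sgk1, and the 250 bases before each start were read. The full form searched was AGAACA, any 3 bases, then TGTTCT, which is its own reverse complement, so 1 search covers both strands. It was found before 1 of the 6 Sgk1 starts, in no other member's window, and in 3 of 32851 windows of the same length over all genes (0.00913%). Its inner part ACANNNTGT, also its own reverse complement, was found in 3 of the 16 windows and in 5.84% of all windows, and the half-site TGTTCT, on either strand, in 4 of the 16 and in 16.1% of all windows; each full match also counts as a match of both shorter forms. The Sgk1 window with the full match is shown beside the Tsc22d3 window with a half-site and the single Txnip window, with every match of these 3 forms in capitals, 5′ to 3′ along the gene's strand:
Sgk1, chr10:21993640-21993889, plus strand: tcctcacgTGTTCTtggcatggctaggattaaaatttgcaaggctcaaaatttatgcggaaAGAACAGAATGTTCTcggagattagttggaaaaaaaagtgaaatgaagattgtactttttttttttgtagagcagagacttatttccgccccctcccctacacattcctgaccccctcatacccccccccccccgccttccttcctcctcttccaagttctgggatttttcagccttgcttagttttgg
Tsc22d3, chrX:140600523-140600772, minus strand: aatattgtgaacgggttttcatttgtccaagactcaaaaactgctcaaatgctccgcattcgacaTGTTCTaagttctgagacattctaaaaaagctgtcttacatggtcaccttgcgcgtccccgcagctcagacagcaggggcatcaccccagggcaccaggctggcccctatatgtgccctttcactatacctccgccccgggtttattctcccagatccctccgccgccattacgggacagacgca
Txnip, chr3:96557707-96557956, plus strand: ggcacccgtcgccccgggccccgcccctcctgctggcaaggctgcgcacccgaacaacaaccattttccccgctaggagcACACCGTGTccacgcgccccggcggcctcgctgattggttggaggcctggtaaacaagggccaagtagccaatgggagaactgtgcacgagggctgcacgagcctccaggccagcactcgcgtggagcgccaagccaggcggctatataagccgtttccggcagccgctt
The full match in Sgk1 begins 189 bases before the start, and a further half-site lies 242 bases before it. In Tsc22d3 the half-site begins 185 bases before the start, and in Txnip the inner part begins 170 bases before it. The windows before the 2 other Tsc22d3 starts and those of Fkbp5, Per1, Ddit4, Klf9 and Dusp1 held none of the 3 forms. A match describes these letters only: receptor binding was not measured, and no source used here says which start the Sgk1 transcripts used.

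Tsc22d3 (GILZ) did not pass the test on any of its 3 tested probe sets. Probe set 1420772_a_at read 1868, 3983, 2744 and 4632 on control and 1718, 1183, 1834 and 2296 on mutant arrays. Mutant replicate 4 exceeded control replicate 1, and control replicates 2 and 4 were the highest arrays. The log2 difference was -0.86 ± 0.27 (adjusted p = 0.0945 in limma; exact permutation p = 0.0571). Probe set 1425281_a_at read 1694, 3687, 2566 and 4280 on control and 1996, 1184, 1798 and 1881 on mutant arrays, so that 3 of the 4 mutants lay above control replicate 1, with a difference of -0.77 ± 0.26 and an adjusted p of 0.122. Without control replicate 1 both passed, at -1.11 (adjusted p = 0.0274) and -1.02 (0.0265). In the Xist fit they were -0.13 and -0.01. The third tested probe set, 1425557_x_at, whose suffix marks possible cross-hybridisation, read 102 to 171 on control and 128 to 151 on mutant arrays, a difference of 0.04 ± 0.18. The fourth, 1444365_at, was below the dim limit throughout, at no more than 27.7.

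For Fkbp5 no difference was detectable against a wide spread among controls. Probe set 1416125_at read 2119, 2605, 3968 and 5296 on control and 2807, 2980, 2611 and 4410 on mutant arrays. All mutant arrays lay within the control range. The log2 difference was -0.07 ± 0.26 (adjusted p = 0.916), and 0.56 ± 0.35 in the Xist fit (adjusted p = 0.774), where the sign turned. Probe set 1448231_at read 1256, 1366, 2487 and 4017 on control and 1854, 1457, 1523 and 2071 on mutant arrays, a difference of -0.25 ± 0.31 (adjusted p = 0.706), and of 0.44 in the Xist fit. As for Nr3c1, control replicates 3 and 4 were the highest control arrays on both probe sets, by a mean of 0.96 and 1.26 log2 units over replicates 1 and 2. The third probe set, 1447736_at, did not exceed 13.4.

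Ddit4, which encodes REDD1, an inhibitor of mTORC1 signalling, did not pass the test. Its probe set 1428306_at read 1922, 4459, 2941 and 4226 on control and 2769, 2159, 3181 and 2608 on mutant arrays. Control replicates 2 and 4 stood above all mutants and control replicate 1 below all of them. The log2 difference was -0.27 ± 0.23 (adjusted p = 0.56), and it was 0.46 in the Xist fit. Klf9, a zinc finger repressor gene that responds directly to the receptor, was dim. Its brightest probe set, 1428288_at, read 47, 73.2, 61.1 and 117 on control and 30.4, 41.3, 52.9 and 79.7 on mutant arrays, with overlapping groups and a difference of -0.43 ± 0.27 (adjusted p = 0.422), which was 0.039 in the Xist fit. The second tested probe set, 1436952_at, straddled the dim limit (26.3 to 47.8 over the 8 arrays) and differed by 0.05, and by -0.038 in the Xist fit. The other 5 Klf9 probe sets were not tested and did not exceed 42.2.

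Per1 and Dusp1 are induced quickly by the hormone and by other stimuli; Per1 is a repressor of the circadian clock and Dusp1 a phosphatase that switches off MAP kinases. Per1 (1449851_at) read 95.7, 101, 77 and 80 on control and 104, 110, 117 and 104.5 on mutant arrays. Every mutant array lay above every control array, by a small margin: the log2 difference was 0.26 ± 0.14, the exact permutation p 0.0286 and the adjusted p in limma 0.321. In the Xist fit it was 0.16 (adjusted p = 0.934). Groups did not overlap for 3 of the 18 tested probe sets, 2 with mutants higher and 1 with mutants lower, and for 14.3% of all tested probe sets, 7.32% higher and 7% lower. Dusp1 (1448830_at) read 506, 490, 578 and 587 on control and 426, 388, 308 and 538 on mutant arrays. Mutant replicate 4 alone overlapped the controls, and the difference was -0.39 ± 0.16 (adjusted p = 0.183). Without mutant replicate 4 it was -0.52 with an adjusted p of 0.0483.

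Txnip, which encodes an inhibitor of thioredoxin and of glucose uptake, did not pass the test on either probe set. Probe set 1415996_at read 5363, 6296, 5390 and 5140 on control and 5411, 5152, 5997 and 5027 on mutant arrays, a difference of -0.04 ± 0.08 (adjusted p = 0.835), and of 0.0056 in the Xist fit. Its standard deviation was 0.13 log2 units over controls and 0.11 over mutants, below the medians of 0.20 for all tested probe sets. Probe set 1415997_at read 3183 to 3768 on control arrays, 3069 to 3360 on mutant replicates 1, 2 and 3, and 1850 on mutant replicate 4. The difference there was -0.30 ± 0.16 (adjusted p = 0.328), -0.20 in the Xist fit, and -0.11 without mutant replicate 4.

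**Figure D3:**
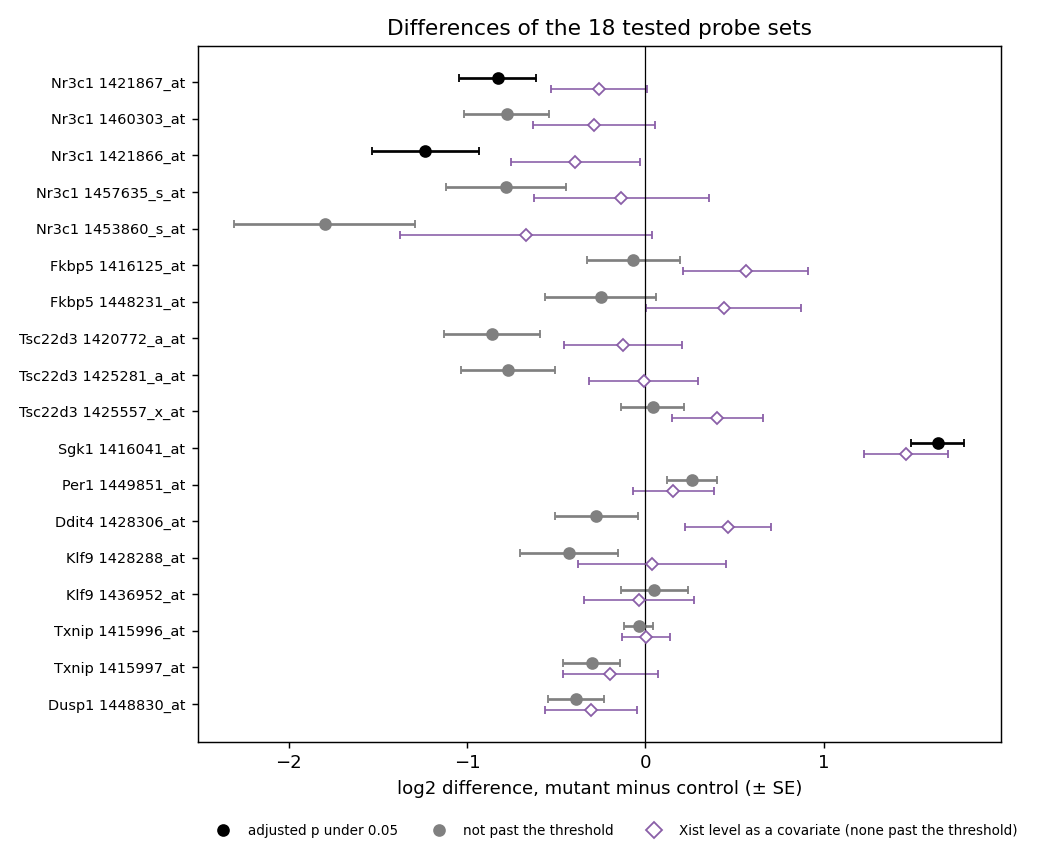
Log2 difference, mutant minus control, with its SE, for the 18 tested probe sets, in black where the adjusted p was under 0.05 and in grey otherwise; open diamonds are the same difference with the Xist level as a covariate. Sgk1 lies at 1.64, and at 1.46 with the covariate, where its call is lost (adjusted p = 0.0856 in limma). The 5 Nr3c1 differences and those of Tsc22d3 1420772_a_at and 1425281_a_at lie closer to 0 with the covariate, that of Tsc22d3 1425557_x_at lies farther from 0 (0.40 against 0.04), and the Fkbp5 and Ddit4 differences change sign.

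The control arrays spread more than the mutant arrays (log2 standard deviation) on 15 of the 18 tested probe sets, and on 49.6% of all tested probe sets. Of the 18 tested probe sets, control replicate 4 was the highest control on 12 and control replicate 1 the lowest on 13. Over all tested probe sets those shares were 26.1% and 20%. Probe sets of 1 gene share its transcripts, so these counts are not independent. Sgk1 and Per1 ran the other way: control replicates 3 and 4 were lower than replicates 1 and 2, by 0.47 and 0.27 log2 units. The same difference was also below 0 for Klf9 1436952_at (-0.096) and for Txnip 1415996_at and 1415997_at (-0.14 and -0.034).

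Most genes for proteins that fold or assist the receptor did not pass the test. Of 30 listed chaperone and coregulator genes 25 had a probe set and 24 were tested on their brightest probe set, where 1 rose, 2 fell and 21 did not pass. Over all 9941 genes tested this way 7.24% were called, 4.16% higher and 3.08% lower. The median difference of the list was -0.11, against 0.02 over all genes. Smarca4, the ATPase of the SWI/SNF chromatin remodeller, went from 3761 ± 474 to 2356 ± 255 (SD, n = 4) and fell by 0.67 ± 0.11 log2 units (log2 difference -0.67, adjusted p = 0.00492). Nrip1, a corepressor of nuclear receptors, went from 3149 ± 97.2 to 2331 ± 126 (-0.43, adjusted p = 0.00475). Carm1, an arginine methyltransferase that acts as a coactivator, rose from 239 ± 23.9 to 378 ± 32.3 (0.63, adjusted p = 0.0119), a call lost without mutant replicate 2 (0.60, adjusted p = 0.0513). None of the chaperone genes was called, and they did not move alike. Hsp90aa1, Hspa8 and Fkbp4 differed by -0.08, -0.07 and 0.05. Dnaja1, Dnajb1 and Stip1 differed by -0.40, -0.33 and -0.24 (adjusted p = 0.136, 0.0608 and 0.645 in limma). Hspa4, Ppp5c and Cdc37 differed by 0.19, 0.19 and 0.06, and Stub1 and Bag1 by -0.03 and -0.002. Nr3c2, the mineralocorticoid receptor gene, stayed below the dim limit on all arrays.

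Other genes known to respond to glucocorticoids moved in both directions. Of 28 listed genes 16 were tested, and 2 rose, 4 fell and 10 did not pass, with a median of 0.25. Over all genes tested on 1 probe set, 4.16% rose and 3.08% fell, with a median of 0.02. Crispld2, a secreted protein gene, rose most, from 256, 177, 67.7 and 107 on control to 827, 1001, 910 and 926 on mutant arrays (2.61 ± 0.30, adjusted p = 0.00097). Cxcr4, a chemokine receptor gene, fell most among them, from 4221, 4194, 4478.5 and 4464 to 1543, 1162, 768 and 1791 (-1.78 ± 0.21, adjusted p = 0.00118). The repressor gene Bcl6 fell by 1.02 ± 0.13 log2 units (log2 difference -1.02, adjusted p = 0.00163). Errfi1, a feedback inhibitor of the EGF receptor, fell by 0.80 (log2 difference -0.80, adjusted p = 0.0164), a call lost without mutant replicate 2 (adjusted p = 0.0592). The remaining calls, named after their values were seen, were Sesn1 (0.66, adjusted p = 0.0153, and 0.0563 without control replicate 3) and Nfkbia, which encodes the NF-kappaB inhibitor alpha (-0.37, adjusted p = 0.00834, and 0.0625 with no variance trend). Zbtb16, Cebpd, Pdk4, Tat, Pck1, Lcn2 and Fam107a were below the dim limit on all 8 arrays.

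Genes that make or convert the hormone included 2 rises. Of 16 listed genes 5 were tested, 2 rose, 0 fell and 3 were tested but not called (3 of 5 at an unadjusted p under 0.05 in limma). Of all genes tested on 1 probe set, 4.16% rose and 3.08% fell, and the share at that unadjusted p was not counted. Fdx1, which encodes the electron donor of mitochondrial steroid hydroxylases, read 598, 626, 439 and 365 on control and 1864, 2085, 2200 and 1684 on mutant arrays (1.94 ± 0.17, adjusted p = 0.00031). Hsd11b1, whose product regenerates active corticosterone, read 1006, 953, 585 and 383 on control and 1426, 1854, 1735 and 1245 on mutant arrays. Its groups did not overlap (1.16 ± 0.27, adjusted p = 0.0307), but the call was lost without control replicate 3 (adjusted p = 0.1) and without mutant replicates 1, 2 or 3 (0.0701, 0.101 and 0.0868). It was also lost with no variance trend (0.0612) and in the Xist fit (0.61, adjusted p = 0.779). Cyp11a1, the enzyme of the first step of steroid synthesis, differed by 0.18 (adjusted p = 0.541). Cyp11b1, Cyp11b2, Cyp17a1, Cyp21a1 and Hsd3b1 were below the dim limit on all arrays, so these later steps of synthesis were not detectable here. Nr5a1 and Hsd11b2, which do not encode enzymes of synthesis, were also below it on all arrays.

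Of 12 genes repressed by glucocorticoids 10 were below the dim limit on all arrays and 2 could be tested. The cytokine gene Tnf read 3.5 to 36 on control and 46.6 to 122 on mutant arrays, dim on 3 of the 4 controls, and was called higher (adjusted p = 0.0197). Tnf passed the dim filter through its 4 mutant arrays, the group where it was high, so its call is not separate from that selection. With a filter of signal above 100 on at least 4 arrays Tnf was not tested and this list had 0 calls. With the controls at background the size is not fixed: the log2 difference was 1.73 with 16 added to the signal, 2.89 with 1 and 0.86 with 64, and 0.77 in the Xist fit (adjusted p = 0.752). That call was lost without control replicates 3 or 4 (adjusted p = 0.0692 and 0.0519) and without mutant replicates 2 or 3 (0.0706 and 0.0599). Among 18 immediate early genes, which share fast induction with Dusp1 and Per1, 11 were tested, 3 rose and 1 fell. The shares over all genes tested on 1 probe set were 4.16% higher and 3.08% lower. Jun rose by 1.60 and Klf2 by 0.95 (adjusted p = 0.00261 and 0.0102). Klf6 rose by 0.40 (0.0428) and Egr1 fell by 0.60 (log2 difference -0.60, 0.0418), and these calls were each lost in most fits without 1 array, with adjusted p up to 0.123 for both. Egr1 was at -0.94 in the Xist fit (adjusted p = 0.156). In the Xist fit no call of these 5 lists was kept. That fit sets the mutants against control replicate 1 alone, so a lost call there does not show that a difference is absent.

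**Figure D4:**
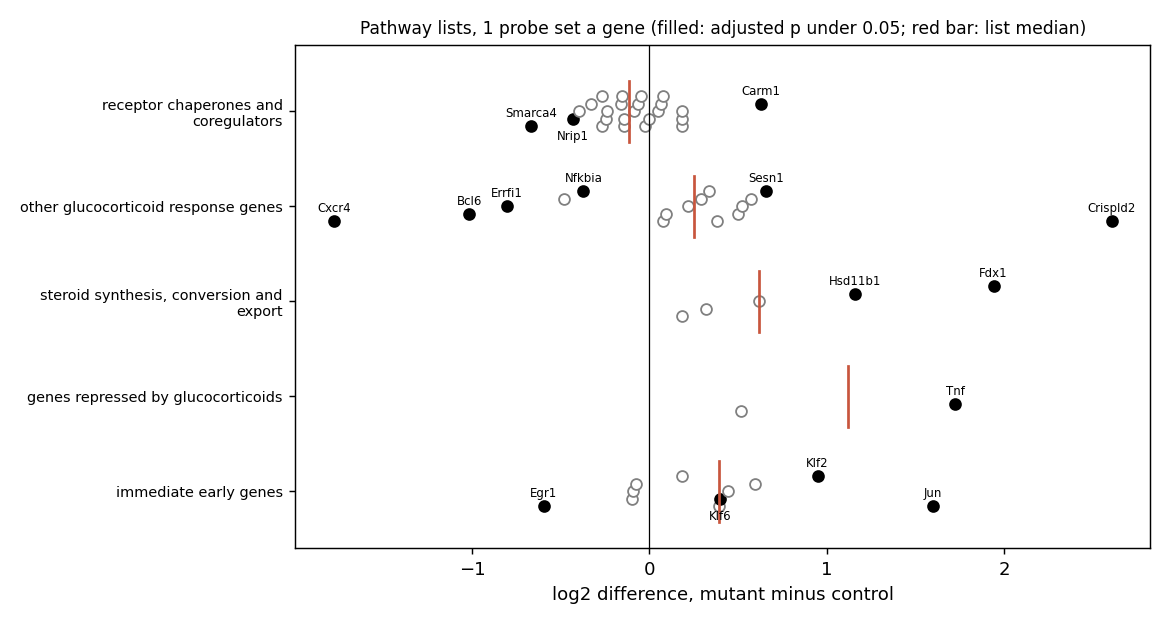
Log2 difference, mutant minus control, of each tested gene in the 5 pathway lists, 1 probe set a gene, filled where the adjusted p was under 0.05, with the list median as a red bar. Most receptor chaperones and coregulators lie near 0, with a median of -0.11, while the response genes spread from -1.78 for Cxcr4 to 2.61 for Crispld2.

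Markers of other thymocyte stages and cells moved with the groups as follows. Over all genes tested on 1 probe set, 4.16% were called higher and 3.08% lower. Double-positive markers were lower for 3 of 12 tested genes, among them Endou (-0.98) and Arpp21 (-0.77), with summed signals of 80788 to 85531 on control and 69714.5 to 76864 on mutant arrays. Mature single-positive markers were higher for 3 of 7, led by Ccr7 (3.65) and Itgb7 (2.53), with sums of 8565 to 10511 and 11740.5 to 13210. Most of these sums was Ccr9, at 8098 to 9796 on control and 9813 to 10374 on mutant arrays. Ccr9 was not called (0.19, adjusted p = 0.109 in limma), so the sums mainly follow that gene. Double-negative markers were higher for 2 of 5, Il2ra (3.20) and Dtx1 (2.82), with sums of 919 to 1784 and 2488.5 to 5345. The other tested probe set of Dtx1 differed by -0.077, and that of Il2ra by 2.66. Gzma (0.75) was called among 4 tested markers of gamma-delta, NKT and NK cells, and Car2 (2.27) among 2 tested erythroid markers. The other tested erythroid marker, the haemoglobin gene Hba-a2, differed by -0.12 (adjusted p = 0.708 in limma). Macrophage, B cell, granulocyte and stroma markers had 0 calls among 10, 2, 1 and 3 tested genes in limma, with 1, 1, 1 and 2 at an unadjusted p under 0.05. The share of all tested genes at that unadjusted p was not counted, so these last counts have no background beside them. Summed macrophage and dendritic cell markers read 982 to 2377 on control and 1568 to 2155 on mutant arrays, Siglech and Cd14 being below the dim limit on all. The part of these cells and stages in the differences of Nr3c1 and its response genes was not tested.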

How the data were processed

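RNA of double-positive thymocytes was measured on 8 one-colour arrays, 4 titled control and 4 titled mutant, each from 1 mouse; the labels call them biological replicates. Each deposited value is a linear signal intensity of 1 probe set on 1 array, from GCOS per the submitters' processing notes, for which the sources used here give no version or settings. These deposited intensities start at 0.1 and have a 2% trimmed mean of 250.0 on every array, so each had been scaled to a common level, which removes differences in total RNA. No detection calls or scan dates were at hand, so batches were not tested. At most 271 of 45101 values were identical between any pair of arrays.

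Signals were used as deposited, as log2(signal + 16), which understates changes of dim genes. Of 45101 probe sets 64 controls were left out, and those above the table median, 33.8, on at least 4 arrays were kept (22599). The platform annotation gives 34945 probe sets 1 symbol, 932 several and 9160 none; 34741 gene identifiers were found in RefSeq (GRCm38.p6), used for current symbols. Tests used limma 3.58.1 in R 4.3.3 (lmFit, eBayes with a variance trend, two-sided, Benjamini-Hochberg over all tested probe sets, threshold 0.05), with two-sided exact permutation tests over 70 labellings for members. Lists use each gene's brightest tested probe set. Python 3.11.15 with pandas 2.3.3 served for motifs, and matplotlib 3.10.9 for plots. The fit was tested on simulated data with known changes. The members and gene lists were chosen with earlier results of these data known. Named were all member probe sets, up to 4 called genes a pathway list with the largest difference, up to 2 a marker list, and the 3 genes most like Nr3c1. Some further genes of the lists, called or not, were named beside them. Genes of the lists without a 1-symbol probe set were not analysed here. The replicate numbers did not pair the arrays: deviations from group means correlated at -0.151, 0.18, -0.372 and 0.325 for numbers 1 to 4. The number of arrays limits the precision.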

Additional observations from a re-analysis of the deposited data

Results flagged for a closer look

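Of 42 groups of 4 arrays examined (the 18 tested probe sets and 3 array measures, in each group), 1 held an array that stood apart. About 1 in 20 groups would by chance, so finding 1 such array is no more than chance would give. The 18S rRNA control read 7142.7 on mutant replicate 4 and 772 to 1459 on the other mutant arrays. On the same array Txnip probe set 1415997_at read 1850 and Nr3c1 probe set 1453860_s_at read 26.3, each the lowest of the 8 arrays. The part of the 18S signal in these values was not tested.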

How the results depend on the processing

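Of 18 tested member probe sets 3 were called, and the count was 1 with no dim filter, 1 with no variance trend, 1 at an adjusted p threshold of 0.01, 8 with array weights, 5 with the replicate block and 0 with the Xist level as a covariate. Without single arrays it ranged from 1 to 6. The count over all probe sets, 1316, was 2631 with array weights, 427 at a threshold of 0.01, 8 with the Xist level, 1081 with the replicate block, and 561 to 1493 without single arrays. Of 24 tested receptor chaperones and coregulators 3 were called, against 5 with array weights, 0 with the Xist level and 2 to 4 without single arrays. Of 16 tested response genes 6 were called, against 8 with the fit on 1 probe set a gene, 5 with no variance trend and 4 at a threshold of 0.01. The count was 7 of 28 with no dim filter and 5 to 7 without single arrays, and no call was kept with the Xist level. Sgk1 was called in 18 of 19 alternatives, the exception being the Xist level. Nr3c1 1421867_at kept its sign in 19 of 19 alternatives (-1.02 to -0.26) and lost the call in 10 of them, which include a pseudocount of 1 (adjusted p = 0.0515), no dim filter (0.0781) and no variance trend (0.0914). Nr3c1 1421866_at lost its call in 9 of 18, which include no dim filter (0.0587) and no variance trend (0.0712). Array weights called 5 further member probe sets, 3 of them of Nr3c1 and 1 each of Tsc22d3 and Dusp1.

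With the Xist level 6 member differences turned sign: Fkbp5 to 0.56 and 0.44, Ddit4 to 0.46, Klf9 to 0.039 and -0.038 and Txnip 1415996_at to 0.0056. Without single arrays, Fkbp5 1416125_at ranged from -0.28 to 0.16, Fkbp5 1448231_at from -0.48 to 0.074, Tsc22d3 1425557_x_at from -0.079 to 0.14 and Txnip 1415996_at from -0.090 to 0.024, turning sign within those ranges. None of these was called. The cause of these changes was not tested. Under the replicate block, whose numbers did not pair the arrays, Nr3c1 1460303_at and 1457635_s_at were called and Egr1 and Klf6 were not, which left 2 of 11 tested immediate early genes called in place of 4. Same-numbered arrays were not the most alike throughout: control replicate 1 correlated best with mutant replicate 3 (0.308). Dim probe sets, 8 of the 26, could not be tested.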
